A study of Mus musculus with 58 samples.

Results

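Slc17a7, Tbr1, Neurod6, Neurod2, Emx1, Lamp5, Rorb, Cux2 and Fezf2, 9 genes known from excitatory neurons of the cerebral cortex, were followed through mouse striatum as a measure of the cortex that came along with the dissected tissue. They are taken by name, with no threshold on a measured value, and make up 9 of the 54532 genes of the RNA-seq tables and 9 of the 18411 genes of the lysate tables. The 9 genes were found in all tables and passed the filter on low counts in every comparison.

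RNA-seq had been done on 32 striata, 16 of a line carrying mutations in Taok2, Sez6l2 and Mvp (3g) and 16 of a line lacking 1 copy of the 16p11.2 region (16p11.2), in 8 groups of 4 by line, genotype and sex. The del/+ mice are heterozygous and the wild-type (wt) mice are littermates. A second set of 13 male striata was lysed for 2 libraries each, total lysate RNA and ribosome footprints, with 3 wt and 3 del/+ mice of the 3g line and 4 wt and 3 del/+ mice of the 16p11.2 line. The study compared del/+ with wt mice within a line and sex. The 3g alleles were made by CRISPR/Cas9 in zygotes sired by C57BL/6J males and bring premature stop codons into the 3 genes, the 16p11.2 line was bought as an established strain, and the labels give the strain as B6129S for all mice. The labels record tissue, sex, strain and genotype, with no dissection date or batch. Libraries are named here by genotype, sex and the number in their labels, which in 16p11.2 RNA-seq runs from 1 to 4 anew in each group.

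The striatum is built mainly of GABAergic projection neurons, while its glutamatergic input arrives in axons from cortex and thalamus whose cell bodies, and most of whose mRNA, lie outside it. The cortex and its white matter lie directly over the striatum, so that a block of striatal tissue can take cortical cells with it. Slc17a7 encodes the vesicular glutamate transporter VGLUT1 of cortical and hippocampal excitatory neurons. Tbr1, Neurod6, Neurod2 and Emx1 encode transcription factors of the cortical excitatory lineage, and Fezf2 one that specifies deep-layer neurons projecting below the cortex. Rorb is a layer 4 and Cux2 an upper-layer transcription factor, and Lamp5 encodes a membrane protein of upper-layer and of some inhibitory neurons. The last 3 are also known from cells other than cortical excitatory neurons, and in tissue RNA fewer cells of a type cannot be told apart from less RNA per cell.

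Levels are given as CPM, counts relative to the library total, scaled by the trimmed mean of M-values (TMM) over all libraries of an assay. They are compared between libraries and not between genes, because CPM does not account for transcript length. Library totals were 11711099 to 65529807 counts in RNA-seq, 15102576 to 19122488 in lysate RNA and 342052 to 678130 in footprints. Striatal markers were present throughout RNA-seq: Ppp1r1b, encoding DARPP-32 of projection neurons, ran from 971 to 1844 CPM in the 16p11.2 line and from 1212 to 1590 CPM in the 3g line. In 3g mice Sez6l2 fell below the wt range in all 8 del/+ libraries (188.5 to 224.9 against 273.5 to 335.5 CPM in males), while Taok2 ranges overlapped (156 to 197 against 176 to 182 CPM in males). In 16p11.2 males Taok2 was at 83.2 to 94.9 CPM in del/+ and 153 to 183 CPM in wt mice.

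Several RNA-seq libraries stood apart. 3g wt male 17 had Otof at 12.4 CPM, where the 15 other 3g libraries had 78.9 to 138 CPM and the 16p11.2 libraries 9.41 to 45.5 CPM, and its 6 oligodendrocyte genes summed to 10780 CPM, above the 4069 to 7277 CPM of the other 3g libraries. 16p11.2 del/+ male 4 had the highest Otof level of its line, at 45.5 CPM, and the lowest oligodendrocyte sum, at 5493 CPM. In the 16p11.2 line, the library labelled del/+ female 1 had Xist at 0.462 CPM and the Y-linked Ddx3y at 38.5 CPM, where the 15 other female libraries had Xist at 326 CPM or more and Ddx3y at 0. It goes against its sex label and is called by its label below. Values that turn on one of these libraries are given without it as well.

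The start-site regions of 2 of the genes are shown as context for what is measured: Slc17a7, the transporter gene the other members are set against, and Neurod2, whose protein binds E-boxes of the form CAGATG. The sequences are from RefSeq on GRCm38.p6 and run from 250 bases before to 50 after the annotated start, 5′ to 3′ on the gene's strand. Capitals mark CAGATG or its reverse complement CATCTG, searched on both strands and present in 17.2% of 32851 RefSeq promoters of this length. The Slc17a7 window lies at chr7:45163671-45163970 on the plus strand, and the Neurod2 window at chr11:98329596-98329895 on the minus strand.
Slc17a7: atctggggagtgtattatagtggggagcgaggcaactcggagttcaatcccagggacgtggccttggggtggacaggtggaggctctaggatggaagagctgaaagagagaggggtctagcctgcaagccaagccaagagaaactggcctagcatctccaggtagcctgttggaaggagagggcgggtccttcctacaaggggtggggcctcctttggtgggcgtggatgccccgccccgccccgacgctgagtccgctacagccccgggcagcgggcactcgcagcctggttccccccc
Neurod2: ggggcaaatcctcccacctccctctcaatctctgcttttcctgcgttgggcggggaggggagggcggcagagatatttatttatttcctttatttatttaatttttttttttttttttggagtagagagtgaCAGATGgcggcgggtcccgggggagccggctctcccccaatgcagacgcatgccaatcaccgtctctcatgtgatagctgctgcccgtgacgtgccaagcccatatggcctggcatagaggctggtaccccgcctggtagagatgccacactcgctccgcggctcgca
The hexamer stood once in the Neurod2 window and not in the Slc17a7 window. AGGTGTGA, the core of the T-box motif bound by TBR1, is in 1.28% of promoters and was in neither. Among the other members, CAGATG or CATCTG stood once in a Cux2 window and once in a Lamp5 window. It was in no window of Tbr1, Neurod6, Emx1, Fezf2 or Rorb. These are matches of letters, and binding was not measured.

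The level of Slc17a7 varied widely within the 3g line. It ran from 26.1 to 752 CPM over the 16 3g libraries, a 28.8-fold range, and from 620.4 to 1078 CPM over the 16 16p11.2 libraries, a 1.74-fold range. The 3g range was 20.2-fold without wt male 17, 8.95-fold without wt male 24 and 6.28-fold without both. In 3g wt males it was at 752 CPM in mouse 17, 26.1 in mouse 24, 84.0 in mouse 26 and 242 in mouse 34. In 3g del/+ males it was at 108 CPM in mouse 25, 208 in mouse 27, 120 in mouse 32 and 290 in mouse 33. The del/+ males lay within the range of the wt males, which was set by mice 17 and 24.

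In 3g wt females Slc17a7 was at 131 CPM in mouse 29, 93.0 in mouse 30, 124 in mouse 35 and 457 in mouse 39. In 3g del/+ females it was at 390 CPM in mouse 28, 527 in mouse 31, 361 in mouse 36 and 130 in mouse 37. Most del/+ females lay above most wt females, and 1 library of each genotype crossed over, wt female 39 and del/+ female 37.

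The 16p11.2 line showed no such spread. Slc17a7 in wt males 1 to 4 was at 833, 673, 620 and 1075 CPM, and in del/+ males 1 to 4 at 724, 1056, 804 and 629 CPM. In wt females 1 to 4 it was at 673, 680, 1010 and 692 CPM, and in del/+ females 1 to 4 at 1078, 694, 678 and 888 CPM. The 4 groups overlapped one another throughout, and their means were 764 ± 164 (SD, n = 4) to 835 ± 188 CPM.

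**Figure D1:**
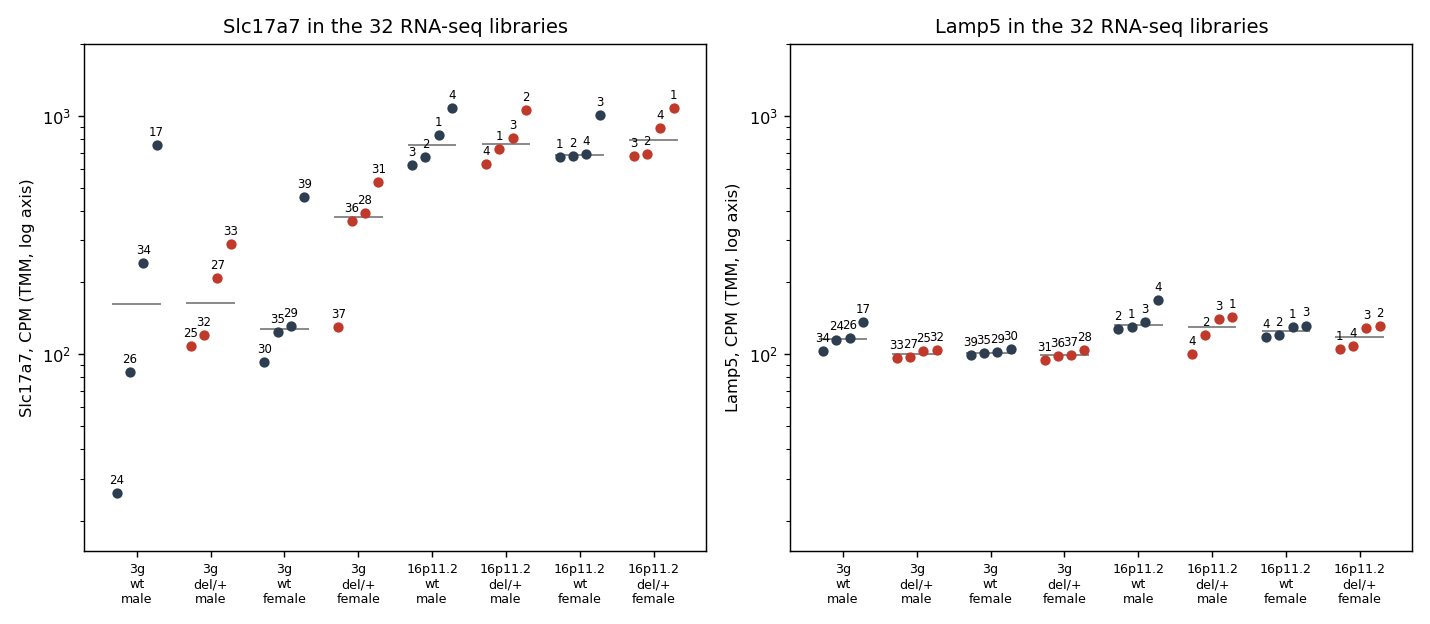
CPM on a log axis of Slc17a7 (left) and Lamp5 (right) in each of the 32 RNA-seq libraries, in 8 groups of 4, with wt in dark blue, del/+ in red, the group median as a grey line and the number from the library's label above each point. Slc17a7 runs from 26.1 to 752 CPM in the 3g line and from 620 to 1078 CPM in the 16p11.2 line, while Lamp5 stays between 94.9 and 168 CPM in all libraries.

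The other transcription factor genes of the lineage had the same wide range in the 3g line. The highest 3g library exceeded the lowest 29.7-fold for Neurod6 (1.02 to 30.3 CPM), 26.6-fold for Neurod2 (1.054 to 28.004 CPM), 16.6-fold for Emx1 (0.379 to 6.29 CPM), 11.51-fold for Tbr1 (5.14 to 59.1 CPM) and 8.59-fold for Fezf2 (1.56 to 13.4 CPM). For these 5 genes the lowest library was wt male 24 and the highest wt male 17, as for Slc17a7. Without wt male 17 the ranges were 15.8-fold for Neurod6 and Neurod2, 9.52-fold for Emx1, 10.02-fold for Tbr1 and 4.35-fold for Fezf2, and without both libraries they were 3.42-fold (Fezf2) to 7.50-fold (Neurod6). In the 16p11.2 line the same genes spanned 2.02-fold (Neurod2) to 2.45-fold (Fezf2).

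Rorb, Lamp5 and Cux2 behaved differently. Rorb ran from 11.8 to 24.9 CPM in the 3g line, but without wt male 17 its highest 3g library was at 17.2 CPM. Lamp5 stayed within 94.9 to 137 CPM and Cux2 within 32.5 to 47.2 CPM in the 3g line. Wt male 24, with the least Slc17a7, had 115 CPM of Lamp5 and 41.6 CPM of Cux2, inside the range of the other 3g libraries.

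**Figure D2:**
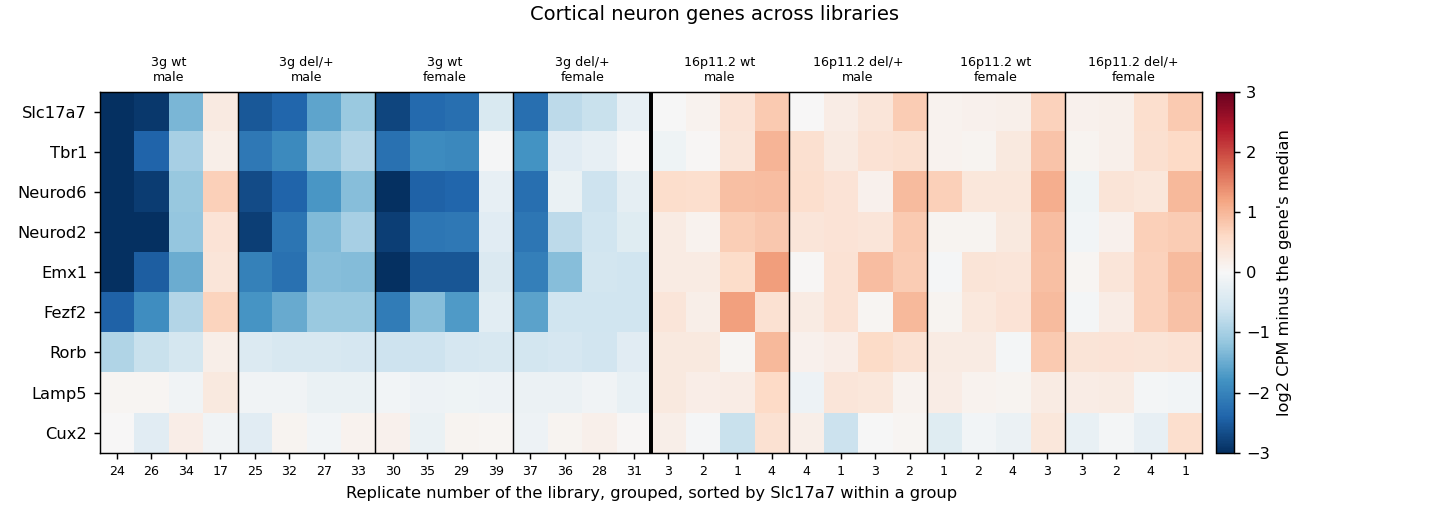
Heat map of log2 CPM minus the gene's median over the 32 RNA-seq libraries, with the 9 genes as rows and the libraries as columns, grouped by line, genotype and sex and sorted by Slc17a7 within a group (colour scale from -3 to 3, values beyond it drawn at its ends). Slc17a7, Tbr1, Neurod6, Neurod2, Emx1 and Fezf2 change together from library to library, while Lamp5 and Cux2 do not follow them.

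Whether the genes rose and fell together was tested within each line over 16 libraries, as the correlation of log2 CPM with Slc17a7. The family held 18 relations, the 8 other members and Ppp1r1b in both lines, with p-values from permutation tests with 100000 resamples, 2-sided, and adjusted by Benjamini-Hochberg. These libraries share a scaling and a tissue block, and genotype and sex groups were pooled. In the 3g line Pearson's r was 0.990 for Neurod2 (Spearman's rho 0.991), 0.988 for Tbr1 (rho 0.979), 0.981 for Neurod6 (rho 0.968), 0.958 for Emx1 (rho 0.906) and 0.940 for Fezf2 (rho 0.959). Each of these had a permutation p of 2e-05, the smallest the resamples can give, and an adjusted p of 6e-05, for r and for rho. Without the 2 libraries farthest from the median, wt males 17 and 24, r for these 5 genes was 0.940 to 0.996.

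Rorb followed Slc17a7 less closely and partly through those libraries, with r 0.731 (permutation p = 0.00034, adjusted p = 0.00068), rho 0.612 (permutation p = 0.0138, adjusted p = 0.0248), and r 0.496 without the 2 farthest libraries, where the adjusted permutation p was 0.0901. Cux2 did not pass, with r 0.294 (permutation p = 0.275, adjusted p = 0.33) and rho 0.309 (permutation p = 0.244, adjusted p = 0.293). Lamp5 had r -0.077 (permutation p = 0.749, adjusted p = 0.793) and rho -0.415 (permutation p = 0.112, adjusted p = 0.144). Without wt male 17 its r was -0.758 (permutation p = 0.0014, adjusted p = 0.00252), so that over the remaining 15 libraries Lamp5 was lower where Slc17a7 was higher. The striatal gene Ppp1r1b had r 0.075 (permutation p = 0.794, adjusted p = 0.794) and rho 0.053 (permutation p = 0.848, adjusted p = 0.848).

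In the 16p11.2 line, with its narrower range, the same 6 genes passed by r. Emx1 had r 0.891 (rho 0.915), Neurod2 0.875 (rho 0.815), Tbr1 0.823 (rho 0.768), Fezf2 0.688 (rho 0.685), Rorb 0.658 (rho 0.568) and Neurod6 0.657 (rho 0.418), with permutation p-values of r from 2e-05 to 0.00702, and adjusted p-values from 6e-05 to 0.0105. By rho Neurod6 did not pass (permutation p = 0.107, adjusted p = 0.144), and the other 5 had permutation p-values of 2e-05 to 0.0237 and adjusted p-values of 6e-05 to 0.0387. Without the 2 farthest libraries, the one labelled del/+ female 1 and wt male 4, r was 0.545 for Neurod6 and 0.569 for Rorb and neither passed (adjusted permutation p = 0.0628 and 0.0616), and the other 4 genes had r 0.739 to 0.855. Cux2 had r 0.431 (permutation p = 0.0899, adjusted p = 0.116; rho 0.259, permutation p = 0.325, adjusted p = 0.366, and r 0.085 without the 2 farthest) and Lamp5 r 0.100 (permutation p = 0.712, adjusted p = 0.793; rho 0.059, permutation p = 0.83, adjusted p = 0.848). Ppp1r1b was lower where Slc17a7 was higher, with r -0.562 (permutation p = 0.0299, adjusted p = 0.0414; rho -0.471, permutation p = 0.0681, adjusted p = 0.102), r -0.515 without the 2 farthest libraries and r -0.866 without del/+ male 4 (permutation p = 0.00012, adjusted p = 0.00024).

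Marker lists of other cell types were set beside the summed CPM of the 9 genes, as a description over the 16 libraries of a line that share their depth and scaling. The sum does not weigh the genes equally, and Slc17a7 had the largest part where it was high. It made up 752 of 1089 CPM in 3g wt male 17 and 1075 of 1546 CPM in 16p11.2 wt male 4, but 26.1 of 203.8 CPM in 3g wt male 24. In that library Lamp5, at 94.9 CPM or more in all 3g libraries, had a larger part than Slc17a7. Genes of layer 6b and claustrum (Ccn2, Nxph4, Cplx3 and Nr4a2), neighbours of the striatum under the cortex, had a summed level that correlated with it at r 0.971 in the 3g and 0.741 in the 16p11.2 line. The 12 other cortical excitatory genes gave 0.865 and 0.706, and among them Etv1 ran from 39.8 to 51.7 CPM in the 3g line. The 11 striatal projection neuron genes gave -0.406 and -0.660, and the oligodendrocyte genes 0.614 and -0.064. Thalamic genes gave -0.241 and 0.424, hippocampal genes -0.06 and -0.422, and choroid plexus genes -0.639 and 0.023. Single libraries moved some of these values: without 3g wt male 17 the oligodendrocyte genes gave 0.362, the thalamic genes 0.096 and the hippocampal genes -0.24 in the 3g line. Without 16p11.2 del/+ male 4 the oligodendrocyte genes gave -0.455 and the thalamic genes 0.679 in that line. The other cortical excitatory genes then gave 0.892, the striatal projection neuron genes -0.838 and the hippocampal genes -0.562. Without the library labelled del/+ female 1 the choroid plexus genes gave -0.334 and the oligodendrocyte genes 0.014. The layer 6b and claustrum genes stayed at 0.970 and at 0.693 to 0.716 without these libraries. The part of these cell types in the members' levels was not tested.

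The 10 genes most like the members were those with the highest mean r, over both lines, with the log2 of the summed CPM of the members, among 18543 genes compared. The 10 were Olfm1, encoding a secreted olfactomedin glycoprotein (mean r 0.988), Fam81a (0.973), Nrn1, encoding neuritin (0.960), Gabbr2, a GABA-B receptor subunit (0.955), the somatostatin receptor gene Sstr3 (0.953), Sv2b, a synaptic vesicle protein gene (0.951), the Nogo receptor gene Rtn4r (0.950), the cholecystokinin receptor gene Cckbr (0.949), Car10 (0.948) and Syt13 (0.948). In the 3g line 268 genes (1.45%) had an r above 0.9, in the 16p11.2 line 22 (0.119%), and 19 had it in both.

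Del/+ and wt mice were compared with edgeR's quasi-likelihood test on all genes, with Benjamini-Hochberg adjustment, and a gene was called at an adjusted p under 0.05. In 3g males none of the 9 genes was called (0 of 9, where 0% of 19081 genes were called). At an unadjusted p under 0.05 there was 1 member, Lamp5, against 1.44% of all genes, and DESeq2 called 0 members. The log2 fold change of Slc17a7, del/+ over wt, was -0.59 ± 0.79 (SE, adjusted p = 0.974), and the median over the 9 genes was -0.51, where that of all genes was 0. Lamp5 was at 103, 96.9, 104 and 96.5 CPM in del/+ males 25, 27, 32 and 33 and at 137, 115, 116 and 104 CPM in wt males 17, 24, 26 and 34, a log2 fold change of -0.23 ± 0.088 (edgeR p = 0.0259, adjusted p = 0.974, exact permutation test of CPM p = 0.0571, 2-sided, smallest possible 0.0286). The highest del/+ and the lowest wt value overlapped.

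The sign in males rested on 1 library. Without wt male 17 the log2 fold change of Slc17a7 was 0.64 ± 0.57, that of Neurod2 0.71 ± 0.59 (from -0.56) and that of Neurod6 0.35 ± 0.54 (from -1.07), and the median over the members was 0.35. No member was called with or without it.

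In 3g females none of the 9 genes was called either (0 of 9, where 0.00526% of 19024 genes were called). At an unadjusted p under 0.05 there were 0 members, against 11% of all genes, and DESeq2 called 0. The log2 fold changes of the 6 genes that move together were all above 0, from 0.34 ± 0.34 for Fezf2 to 0.87 ± 0.56 for Neurod6, with Slc17a7 at 0.80 ± 0.49 (adjusted p = 0.565). Rorb (0.05 ± 0.063), Lamp5 (-0.04 ± 0.036) and Cux2 (0.009 ± 0.078) were near 0.

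Wt female 39, which stands out by the values of these same genes, decided this result, and the calls without it are no separate test. Without it Tbr1 (1.53 ± 0.31, adjusted p = 0.0467), Neurod6 (1.92 ± 0.39, adjusted p = 0.0467) and Emx1 (1.69 ± 0.33, adjusted p = 0.0443) were called higher in del/+ females, while Slc17a7 (1.60 ± 0.34, adjusted p = 0.0507) and Neurod2 (1.48 ± 0.33, adjusted p = 0.0554) were not (edgeR). Of all genes 175 were then called (0.915%), where the 8 libraries gave 1, and 3 of the 16 other cortical, layer 6b and claustrum genes were among them. Without del/+ female 37, which lies on the other side, 18 genes and 0 members were called, with Slc17a7 at 1.08 ± 0.45 (adjusted p = 0.297, edgeR).

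**Figure D3:**
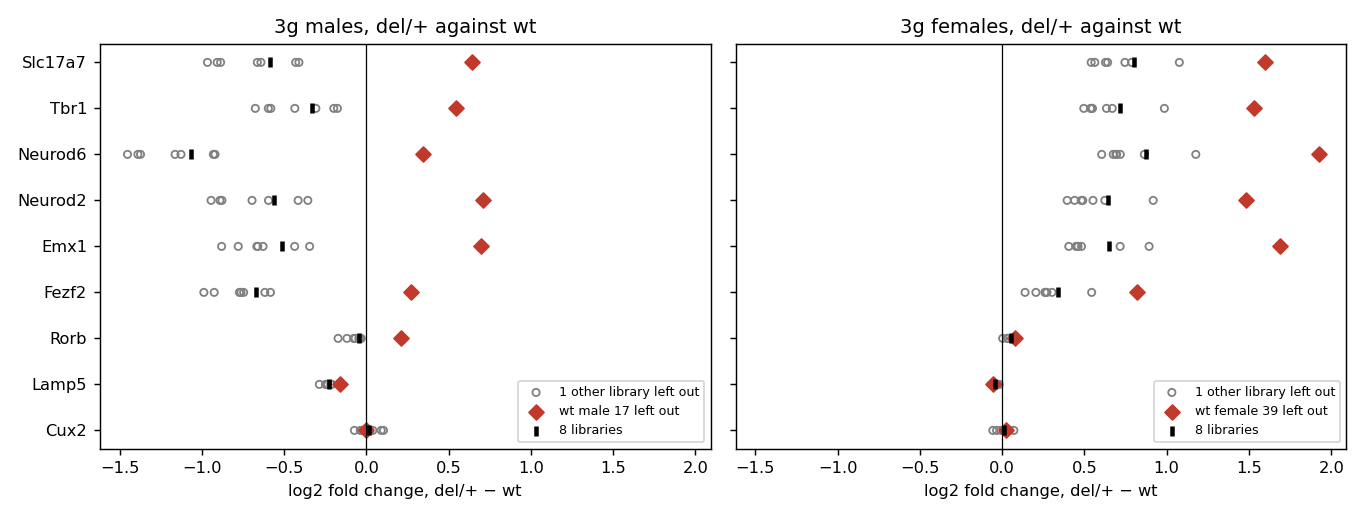
log2 fold change, del/+ over wt, of the 9 genes in 3g males (left) and 3g females (right), with all 8 libraries (black bar), with 1 library left out (open circles) and without wt male 17 or wt female 39 (red diamonds). For Slc17a7 the value goes from -0.59 to 0.64 without wt male 17 and from 0.80 to 1.60 without wt female 39.

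The difference between the sexes in the 3g line was not called for any member (0 of 9, where 0% of 19830 genes were called). At an unadjusted p under 0.05 there were 0 members, against 2.69% of all genes, and DESeq2 called 0. The male minus female genotype effect of Slc17a7 was -1.40 ± 1.05 on the log2 scale (adjusted p = 0.901, edgeR), -0.16 without wt male 17 and -2.19 without wt female 39.

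In the 16p11.2 line the genotypes had like levels of the 9 genes. In males 0 of 9 were called, where 0.106% of 17957 genes were called, and the log2 fold changes lay between -0.19 and 0.03, with Slc17a7 at 0.01 ± 0.20 (0.11 without del/+ male 4). In females 0 of 9 were called, where 0.144% of 18067 genes were called, and the values lay between -0.22 and 0.13, with Slc17a7 at 0.13 ± 0.18 (-0.03 without the library labelled del/+ female 1). In both sexes 0 members had an unadjusted p under 0.05, against 5.82% of genes in males and 4.47% in females, and DESeq2 called 0. The difference between the sexes was called for 0 of 9, where 0% of 18870 genes were called, with 0 members at an unadjusted p under 0.05 against 4.33% of genes, and with 0 members called by DESeq2.

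Of the 50 markers of the other lists, 43 to 46 passed the filter in a genotype comparison of RNA-seq or lysate RNA, and edgeR called 0 of these in each. With no filter on low counts, 1 of the 16 other cortical, layer 6b and claustrum genes was called higher in 3g del/+ females.

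**Figure D4:**
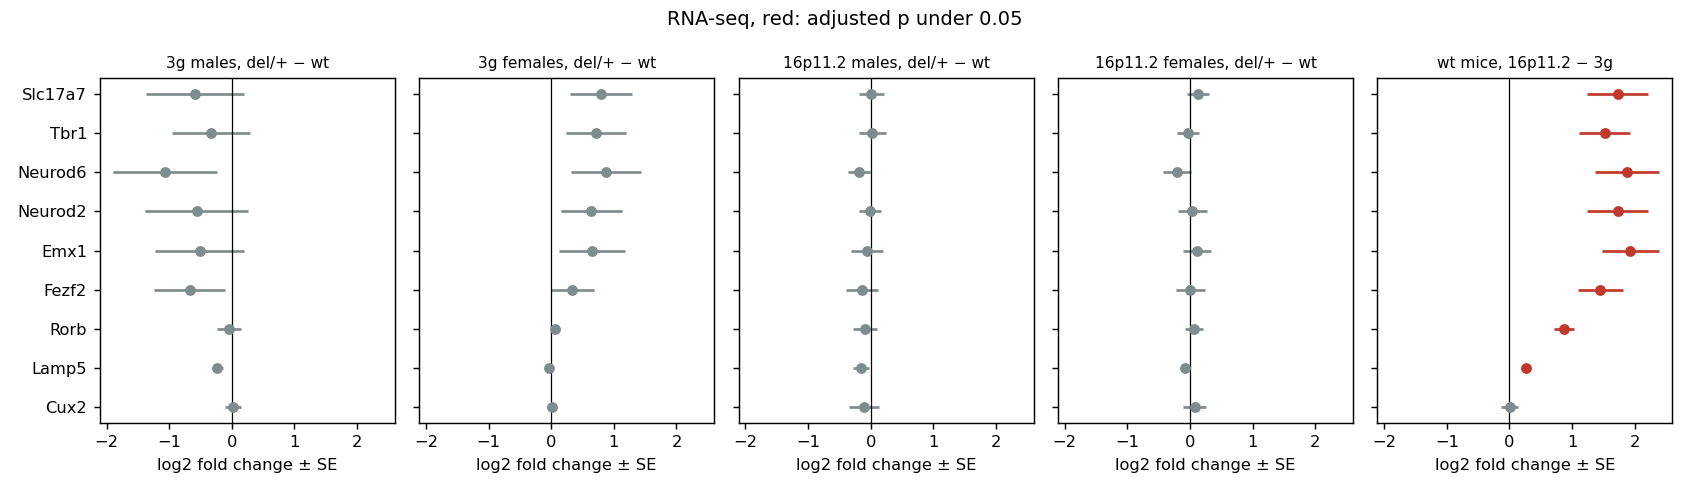
log2 fold change ± SE of the 9 genes in 5 RNA-seq comparisons by edgeR, 4 of del/+ over wt mice within a line and sex and 1 of the 16p11.2 over the 3g line in wt mice (red, adjusted p under 0.05). The error bars of Slc17a7 are ± 0.79 and ± 0.49 in 3g males and females and ± 0.20 and ± 0.18 in the 16p11.2 line, and 8 of 9 genes are red between the lines.

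Between the lines, 8 of 9 genes were higher in the 16p11.2 than in the 3g wt mice (8 libraries each, sex in the model, edgeR), where 61.8% of 19739 genes were called, 30.6% higher and 31.2% lower, and 65.6% had an unadjusted p under 0.05. The log2 differences were 1.93 ± 0.46 for Emx1 (adjusted p = 0.0016), 1.88 ± 0.51 for Neurod6 (adjusted p = 0.00454), 1.73 ± 0.49 for Slc17a7 (adjusted p = 0.00552), 1.73 ± 0.48 for Neurod2 (adjusted p = 0.00527), 1.52 ± 0.41 for Tbr1 (adjusted p = 0.00421), 1.45 ± 0.36 for Fezf2 (adjusted p = 0.00233), 0.87 ± 0.16 for Rorb (adjusted p = 0.000215) and 0.26 ± 0.063 for Lamp5 (adjusted p = 0.00169). Cux2 was at 0.002 ± 0.13 (adjusted p = 0.992). The median over the members was 1.52, where that of all genes was -0.003. No member had all wt libraries of a line apart from the other line, and 1.86% of all genes did in this direction.

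Leaving out 3g wt male 17 raised the difference of Slc17a7 to 2.30. The del/+ libraries, chosen for comparison after the data had been seen, gave 8 of 9 genes as well, with Slc17a7 at 1.69 ± 0.27 and Cux2 at -0.02 ± 0.12 (edgeR). Over all 32 libraries, 15 of 16 3g libraries lay below every 16p11.2 library for Slc17a7, Neurod6, Neurod2, Emx1, Rorb and Fezf2, with wt male 17 the exception, and 13 did for Tbr1, 6 for Lamp5 and 0 for Cux2.

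Markers of other cell types are given beside the members for the same comparison, in which 61.8% of all genes were called. Their counts together lie near that share and are no result about these cell types. Among the 12 other cortical genes 7 were higher in 16p11.2 mice, such as Bhlhe22 (1.64 ± 0.38) and Nptx1 (1.33 ± 0.30), and 2 were lower, Otof (-2.92 ± 0.33) and Rasgrf2 (-0.57 ± 0.22). All 4 genes of layer 6b and claustrum were higher, Nr4a2 (1.88 ± 0.43) and Cplx3 (1.60 ± 0.38) the most. Of the oligodendrocyte genes 5 of 6 were higher, with Mbp, encoding myelin basic protein, at 0.86 ± 0.18, and their sum was 8524 to 13080 CPM in the 16p11.2 and 4069 to 10780 CPM in the 3g wt libraries. Of the thalamic genes 5 of 6 tested were lower, Gbx2 (-1.95 ± 0.35) the most, and of the choroid plexus genes 2 of 5 tested were lower, Clic6 (-1.25 ± 0.17) and Kl (-0.81 ± 0.23). Of the hippocampal genes 1 of 3 tested was higher, Fibcd1 (0.39 ± 0.083). Of the 11 striatal genes 1 was called higher and 3 were lower, Pdyn (-0.64 ± 0.13), Rgs9 (-0.53 ± 0.11) and Pde10a (-0.26 ± 0.093). The log2 differences of the 11 ran from -0.64 to 0.32, with Drd1 at -0.01 ± 0.066 and Ppp1r1b at 0.12 ± 0.081. The lines also differ in the tables they were deposited in, and line, dissection and sequencing run cannot be told apart here.

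The lines were also compared in lysate RNA, from other mice, all of them male and with fewer wt mice a line than RNA-seq. Slc17a7 was at 287, 122 and 209 CPM in the 3 wt mice of the 3g line, in order of their numbers, and at 333, 120, 242 and 205 CPM in the 4 wt mice of the 16p11.2 line. The lines overlapped, and none of the 9 genes was called between them (0 of 9, where 0.0139% of 14417 genes were called). There were 0 members at an unadjusted p under 0.05, against 10.8% of all genes, and DESeq2 called 0. The log2 difference of Slc17a7 was 0.14 ± 0.30 (adjusted p = 0.912, edgeR), with a median of 0.13 over the members. RNA-seq and lysate levels come from separately made tables and are not compared here.

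Within the lysate lines the genotypes overlapped as well. Slc17a7 was at 267, 327 and 163 CPM in the 3 del/+ mice of the 3g line, 0.30 ± 0.26 on the log2 scale against wt (edgeR adjusted p = 0.952), and at 204, 216 and 86.0 CPM in those of the 16p11.2 line, -0.41 ± 0.33 against wt (adjusted p = 0.99). In the 3g line 0 of 9 genes were called, where 0.0209% of 14378 genes were, with 0 at an unadjusted p under 0.05 against 4.92% of genes, and in the 16p11.2 line 0 of 9 were called, where 0.133% of 14330 genes were, with 1 against 4.41%. DESeq2 called 0 in both. That gene was Cux2, at 22.93, 26.03 and 22.84 CPM in del/+ and at 44.07, 29.03, 33.71 and 28.35 CPM in wt mice. The del/+ values lay below all wt values, as they did for 2.76% of all genes, with a log2 fold change of -0.50 ± 0.15 (p = 0.00643, adjusted p = 0.99, edgeR; exact permutation test of CPM, p = 0.0857, 2-sided, smallest possible 0.0286).

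In the 16p11.2 lysates Neurod6 and Tbr1 were low and high in the same mice as Slc17a7 at the ends of its range. In the third 16p11.2 del/+ mouse and the second wt mouse, the 2 lysates lowest in Slc17a7, Neurod6 was at 8.13 and 7.82 CPM and Tbr1 at 24.7 and 30.4 CPM, and in the first wt mouse of the line, the highest, they were at 40.4 and 85.1 CPM. Over the 7 lysates of this line Rorb ran 1.52-fold, from 90.5 to 137 CPM, and Lamp5 1.68-fold, from 20.6 to 34.7 CPM, while Slc17a7 ran 3.87-fold and Neurod6 5.16-fold. Lamp5 was at 27.4 CPM in the del/+ mouse lowest in Slc17a7 and at 20.6 CPM, its lowest level, in another del/+ mouse.

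Footprints of the same lysates gave a second reading of Slc17a7. It was at 560, 219 and 304 CPM in the 3g wt mice, in the same order, and at 559, 573 and 364 CPM in the 3g del/+ mice. In the 16p11.2 line it was at 575, 196, 551 and 453 CPM in wt mice, and at 337, 367 and 261 CPM in del/+ mice. Mice with little Slc17a7 in lysate RNA also had little in footprints: r of log2 CPM was 0.927 over 6 mice of the 3g line (exact permutation p = 0.0194, adjusted 0.0206; rho 0.943, exact p = 0.0167, adjusted 0.0167) and 0.858 over 7 mice of the 16p11.2 line (exact permutation p = 0.0206, adjusted 0.0206; rho 0.929, exact p = 0.00675, adjusted 0.0135), 2 relations tested. Without the 2 mice farthest from the median r was 0.911 (exact permutation p = 0.0833) and 0.761 (exact permutation p = 0.05), with 4 and 5 mice left. Neither test passed, but with 4 mice 0.0833 is the smallest p the pairings can give. The 3g test could thus not pass whatever the values. Each footprint library held 78 to 474 Slc17a7 counts. Emx1 had 0 to 8 footprint counts a library, and 0 in 4 of 13, so that its footprints were not compared.

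**Figure D5:**
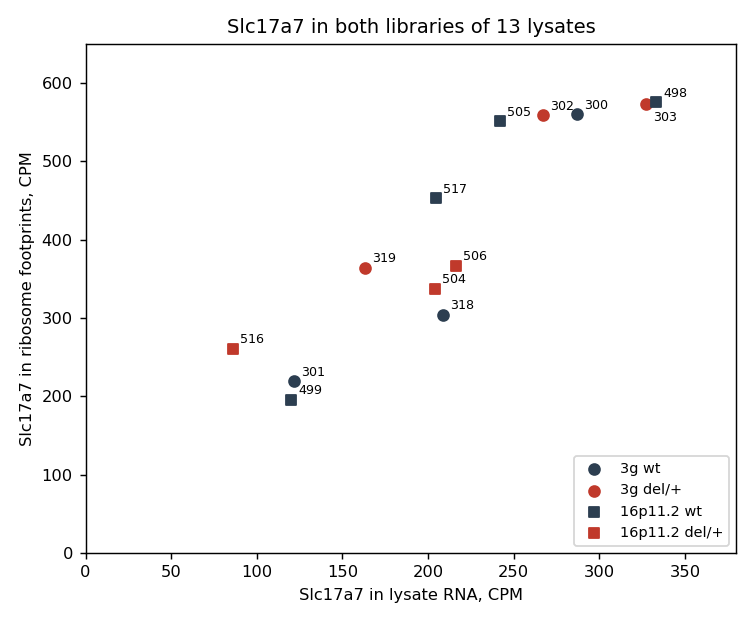
Slc17a7 in CPM in lysate RNA (horizontal) and in ribosome footprints (vertical) of 13 striatal lysates, on linear axes from 0, with circles for the 3g and squares for the 16p11.2 line, wt in dark blue, del/+ in red and the mouse number beside each point. The lysates run from 86.0 CPM in a 16p11.2 del/+ mouse to 333 CPM in a 16p11.2 wt mouse, and both lines and genotypes overlap.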

How the data were processed

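The RNA-seq tables hold whole-number counts per gene, deposited by the authors without normalization for 32 striatal libraries (ribosomal RNA depletion, bcbio-nextgen per the paper; mm10 and HTSeq per the submitters' processing notes). The lysate and footprint tables hold counts per gene deposited by the authors for 13 lysates (mm39 and Bowtie2 per the same notes). Versions are not given in the sources used here. The labels' extraction text names human brains, and their molecule entry polyA RNA, for all libraries, and their source is mouse striatum.

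Counts were tested with edgeR 4.0.16 (TMM, filterByExpr, quasi-likelihood test, Benjamini-Hochberg over all genes tested) in R 4.3.3, within line and sex for RNA-seq and within line for lysates, after the script was tested on simulated data. Line was compared in wt mice, with sex as a covariate in RNA-seq. Alternatives were DESeq2 1.42.0, RLE normalization, no filter, all libraries of a line in 1 fit, the replicate number as a block and each library left out. Correlations used Pearson's r and Spearman's rho of log2 CPM with permutation tests (scipy 1.17.1). For the likeness ranking 0.01 CPM was added before the log. The 9 genes, the marker lists and the tests were chosen with earlier results of these data known. Genes named are the 9 members, at most 4 called genes of each marker list with the largest change, Ppp1r1b, the 10 genes most like the members, Taok2 and Sez6l2. Drd1, Etv1, Rasgrf2 and the sex genes Xist and Ddx3y were added after their values were seen. No sources name separate cultures or tell which littermates belong together. Litter was therefore in no model, and p-values measure the spread between these mice, taken as independent. Ranges and marker-list correlations without single libraries were added after the data had been seen. Some genes of the marker lists are not reported here by name. Footprints entered no test of genotype here, since members had few counts. Depth limits footprint values by counting error.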

Additional observations from a re-analysis of the deposited data

Results flagged for a closer look

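In 81 checks, each of 1 gene in 1 group of 4 libraries, 8 values stood far from the 3 others of their group by Dixon's criterion. Chance alone exceeds it in about 1 in 20 such checks. The checks share libraries and genes that move together, so the 8 cannot be set against that rate as separate events. Of the 8 values, 5 belonged to 3g wt female 39, with Slc17a7 at 457 CPM (others 93.0 to 131), Tbr1 at 51.5 CPM (11.1 to 14.3), Neurod6 at 15.4 CPM (2.15 to 3.55), Neurod2 at 16.7 CPM (2.98 to 4.78) and Emx1 at 3.61 CPM (0.588 to 0.822). These are 5 genes of 1 library and not 5 separate events. Fezf2 in 3g del/+ female 37 was at 2.76 CPM (others 5.57 to 5.60). In the 16p11.2 line Slc17a7 in wt female 3 was at 1010 CPM (others 673 to 692), and Neurod2 in del/+ male 2 at 36.4 CPM (others 26.8 to 27.9). 3g wt male 17 and 24 lie at both ends of a wide group and did not exceed the criterion.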

How the results depend on the processing

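Of 457 values under alternatives, 429 kept their direction and side of the threshold or, for counts, stayed within 1.5 times, 20 changed sign, 7 lost significance and 1 count moved further. The number of members called stayed at 0 in the genotype comparisons and at 8 between the lines under all alternatives run, except in 3g females, where leaving out 1 library gave 0 to 3, the 3 without wt female 39. Without the 2 libraries farthest from the median, the genes that correlated with Slc17a7 numbered 5 in the 3g and 4 in the 16p11.2 line in place of 6 and 6, and in the 3g line Lamp5 then had r -0.626. With 1 library left out, the log2 fold change of Slc17a7 ran from -0.97 to 0.64 in 3g males, from -0.15 to 0.19 in 16p11.2 males, from -0.025 to 0.30 in 16p11.2 females, from -0.13 to 0.46 between lines in lysates and from -0.29 to 0.058 for genotype by sex in the 16p11.2 line. It was -0.007 in 16p11.2 males with no filter. Cux2 between the lines, near 0 throughout, was -0.003 with RLE, -0.008 with no filter, -0.002 with DESeq2, -0.02 in del/+ libraries and -0.083 to 0.079 with 1 library left out. For these the cause was not tested. For lysate RNA against footprints r was 0.911 and 0.761 without the 2 farthest mice and 0.832 to 0.971 and 0.805 to 0.929 with 1 left out, where fewer mice leave fewer pairings.

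The numbers 1 to 4 of the 16p11.2 mice were not taken as pairs in the main fits. Same-numbered deviations correlated at -0.256 to 0.107, which does not settle whether the numbers pair the mice. With the number as a block, Slc17a7 was at 0.02 in males and 0.12 in females, and 0 members were called, with 14 genes called in males (19 without the block) and 22 in females (26). DESeq2 called 118 genes in 3g females where edgeR called 1, and no filter gave 158. It called 30 genes in 16p11.2 males, 49 in 16p11.2 females, 13 in 3g lysates, 31 in 16p11.2 lysates and 162 between wt lysates, where edgeR called 19, 26, 3, 19 and 2. Groups of 3 or 4 mice and, for the footprints of Emx1, few counts limit what could be detected.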
